A study of Penaeus monodon with 38 samples.

Results

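The eyestalk and the cephalothorax of wild-caught female black tiger shrimp (Penaeus monodon) were compared across all 2240 probes of an oligonucleotide microarray. The comparison took every wild eyestalk array (12) and every wild cephalothorax array (6) among the 38 arrays of the series, by the tissue named in the labels, and no measured value entered that choice. The 12 wild ovary arrays and the 4 captive-reared eyestalk arrays were used only to describe levels beside the comparison.

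All females were wild-caught adults in the inter-moult period, acclimated to tanks before use. Those of the preablation stage had both eyestalks. The others had lost 1 eyestalk by unilateral ablation and were sampled 2 h or 24 h later, or later still when their oocytes were vitellogenic, held round cortical rods or held elongated cortical rods. Preablation, 2 h and 24 h are grouped here as previtellogenic, and the other 3 stages as vitellogenic. Each of the 6 stages gave 2 eyestalk arrays and 1 cephalothorax array. The design text gives pools of 4 and of 5 animals for the paired hybridisations of a wild stage, in a passage worded for ovarian RNA, and the pool size behind a cephalothorax array is not given in the sources used here. RNA came from small pieces of tissue, and the labels do not say which organs of the cephalothorax a piece held. The p-values below therefore rest on how pools and stages varied, and not on how single animals did. In such tissue pieces, fewer cells of a type and less RNA per cell cannot be told apart.

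In crustaceans the eyestalk carries the compound eye, the optic ganglia and the X-organ and sinus gland, a neurosecretory centre that releases peptides of the hyperglycemic hormone family into the blood. These peptides act on blood glucose, on moulting and on the ovary, and removal of an eyestalk is used in hatcheries to bring on ovarian maturation. The cephalothorax of penaeid shrimp encloses the hepatopancreas (the digestive gland, also a site of yolk protein synthesis), the stomach, the heart, muscle and the front lobes of the ovary.

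Of the 2240 probes, 1107 (49.4%) were called between eyestalk and cephalothorax by limma at an adjusted p under 0.05. The split was 640 higher in eyestalk (28.6%) and 467 lower (20.8%). That split moved with the scaling: 431 higher and 437 lower with arrays scaled to one median, 364 and 528 by cyclic loess, and 188 and 897 with the vertebrate-derived probes set equal. A stricter count, the clear differences, asked also for a log2 difference of at least 1 in size and for a median above the non-specific level in the higher tissue. That level was, on each array, the 90th percentile of the 24 probes designed on vertebrate sequences. There were 560 clear differences (25%), of which 254 were higher in eyestalk (11.3%) and 306 lower (13.7%). The split of clear differences was 158 higher and 340 lower with one median, 104 and 365 by cyclic loess, and 95 and 407 with the vertebrate-derived probes set equal.

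The arrays and their limits were as follows. Median raw intensity ran from 103.0 to 383.0 over the eyestalk arrays and from 124.2 to 384.1 over the cephalothorax arrays. The non-specific level lay at 7.77 to 8.78 (log2 normalised intensity) on eyestalk arrays and at 7.33 to 7.58 on cephalothorax arrays, and 24.4% to 39.1% of probes exceeded it in eyestalk, against 43.3% to 50.4% in cephalothorax. Of the 24 vertebrate-derived probes 12 were called higher in eyestalk, with a median difference of 0.25 beside 0.14 over all probes. Among these 24, 2 were clearly higher (8.33%, beside 11.3% of all probes) and 0 clearly lower. A clear difference is thus not free of non-specific signal. Over all probes, 200 called probes were above the level on no array. Such calls, near the level of non-specific signal, carry no fold below. Arrays of one tissue correlated at 0.78 to 0.98 within eyestalk and 0.79 to 0.98 within cephalothorax across all probes, and at 0.48 to 0.67 between tissues. Each slide held 1 tissue. With slide as a random block 961 probes were called, all of them among the 1107, and 530 were clear. The 4 eyestalk arrays of the slide whose scan name begins like those of all cephalothorax arrays gave 728 calls (457 higher, 271 lower).

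**Figure D1:**
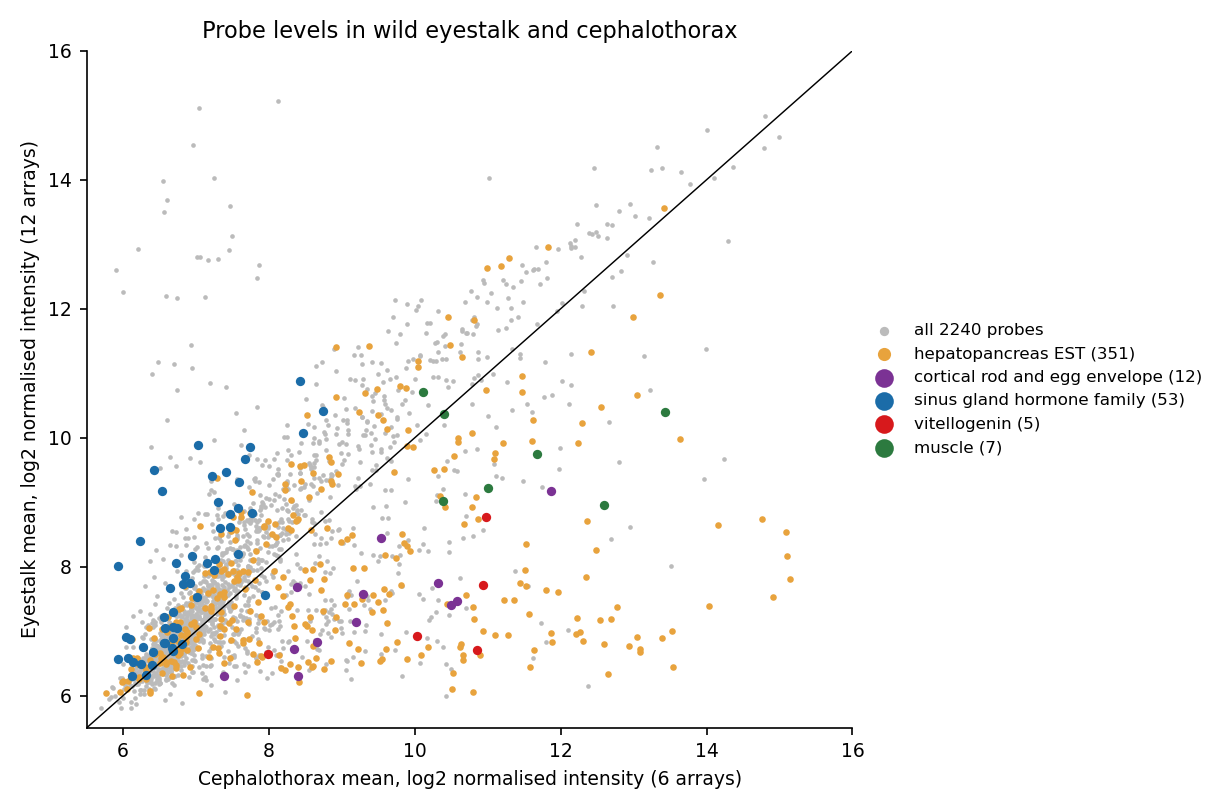
Mean log2 normalised intensity of each probe over the 12 eyestalk arrays (vertical axis) against the 6 cephalothorax arrays (horizontal axis), with the line of equality. Sinus gland hormone probes lie mostly above the line, while cortical rod, vitellogenin and most muscle probes lie below it. Of the 351 hepatopancreas EST probes 132 were clearly lower in eyestalk, and a part of these lies at the lower right.

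Probe names below give the target sequence and the first and last base of the probe in it. Levels are log2 normalised intensities, given as the lowest, the median and the highest array of a tissue, and differences are eyestalk minus cephalothorax, each with its standard error (SE) from limma. Where no array of the dimmer tissue passed the non-specific level, the fold is a bound, written "at least", in which each dim array counts at the level or at its own reading, whichever is greater. Where some arrays of the dimmer tissue passed it and others did not, their number is given with the fold, which then rests partly on readings below the level.

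The highest eyestalk signals with little cephalothorax signal came from sequences to which the files give no gene name. Contig[0307] (182-216) read 13.55, 15.31 and 15.59 in eyestalk, against 6.73, 7.09 and 7.20 in cephalothorax. The groups did not overlap, and the eyestalk level was at least 203.8-fold higher (log2 difference 8.07 ± 0.26, adjusted p = 7.45e-15). Its probe is shown because it carried the largest difference on the array:

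Contig[0307] 182-216: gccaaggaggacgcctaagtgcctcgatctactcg

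The next targets by size behaved alike. E-B6 (68-102), a clone of the set the files call SMART, read 14.05, 14.46 and 15.40 in eyestalk and 6.75, 6.93 and 7.23 in cephalothorax, at least 136.1-fold higher. Contig[0280] (81-115) was 136.6-fold higher, Contig[0318] (129-162) at least 75.65-fold, E-C11 (91-124) 70.16-fold with 4 of 6 cephalothorax arrays above the level, Plate-B-F1 (17-54) at least 66.38-fold and E-H12 (151-184) at least 28.02-fold. Contig[0251] (849-883), with 1 of 6 cephalothorax arrays above the level, differed by 6.78 in log2. In none of these 8 targets did the lowest eyestalk array fall to the highest cephalothorax array, and the other probe of each target was also called higher in eyestalk. Contig[0318] varied most among eyestalk arrays, between 9.60 and 15.59, while Contig[0280] stayed between 14.74 and 15.59. When all 38 arrays were normalised together, Contig[0307] had a median of 15.30 in wild eyestalk, 14.43 in captive eyestalk, 7.33 in wild ovary and 7.07 in wild cephalothorax. The other 7 probes had captive eyestalk medians between 12.03 and 15.54 and wild ovary medians between 6.05 and 7.80 on that scale. High signal was thus seen in eyestalks of both origins, and low medians in ovary and cephalothorax.

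**Figure D2:**
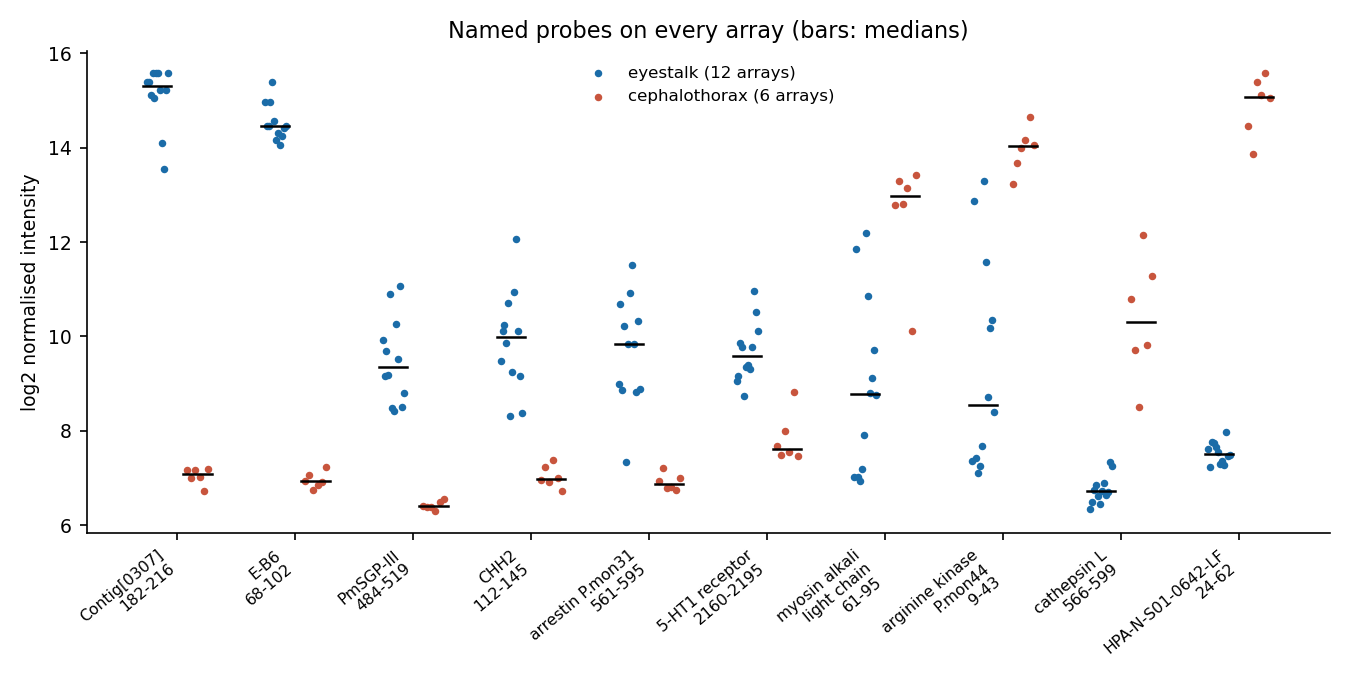
Log2 normalised intensity of 10 named probes on every array, eyestalk (blue, 12 arrays) left of cephalothorax (red, 6 arrays), with bars at the medians. The first 5 probes have no cephalothorax array at or above the lowest eyestalk array, while myosin and arginine kinase spread widely within eyestalk.

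The sinus gland peptides were the largest hormone group on the array. These are the crustacean hyperglycemic hormone (CHH), which raises blood glucose, and the related peptides PmSGP and Pem-SGP-C. Of their 53 probes, from 11 targets, 41 were called higher, 0 lower and 12 were not called, and 18 were clearly higher. The 18 clear ones are 34% of the list, beside 11.3% of all probes. The median difference was 0.87, beside 0.14 over all probes. By the scalings tried the list kept a positive median, lowest at 0.48 with the vertebrate-derived probes set equal, where 24 probes were higher and 5 lower. The mean over the 53 probes ran from 7.52 to 8.54 on eyestalk arrays and from 6.85 to 6.96 on cephalothorax arrays, without overlap.

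PmSGP-III (484-519) had the largest difference of the list. Its probe read 8.42, 9.36 and 11.06 in eyestalk, against 6.30, 6.40 and 6.55 in cephalothorax, where no array passed the non-specific level. It was at least 4.132-fold higher (3.07 ± 0.36, adjusted p = 1.547e-06), and 3 of the other 4 probes of the target were also higher. PmSGP-II (498-532) read 7.94, 9.29 and 10.66 in eyestalk and 6.33, 6.44 and 6.92 in cephalothorax, at least 3.296-fold higher. These 2 probes are not separate readings, because 32 bases of their sequence are the same, printed here in capitals:

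PmSGP-II 498-532: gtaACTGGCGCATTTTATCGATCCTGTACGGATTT
PmSGP-III 484-519: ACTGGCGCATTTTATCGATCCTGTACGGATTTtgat

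The CHH2 probe at 112-145 had no run of 20 or more bases in common with another named target. It stood at 8.32, 9.98 and 12.06 in eyestalk and at 6.72, 6.97 and 7.38 in cephalothorax, without overlap (2.85 ± 0.43, adjusted p = 2.973e-05). As 1 of 6 cephalothorax arrays passed the non-specific level, no fold is given. Only 2 of its other 4 probes were called, both higher. The sequence shows which part of the target carried the signal:

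CHH2 112-145: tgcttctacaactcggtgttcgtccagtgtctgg

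A further 3 members followed with 3 of 3 or 3 of 4 other probes called in the same direction. Pem-SGP-C1 (gene, 105-139) was 4.528-fold higher, PmSGP-I (521-555) 4.338-fold and PmSGP-V (9-43) 4.018-fold, each without overlap between the tissues. Of the 6 cephalothorax arrays 2, 5 and 4 passed the level for these probes. The gene and mRNA entries of Pem-SGP-C1 and of Pem-SGP-C2 hold probes with shared runs of 20 to 34 bases, so the 11 targets are not 11 separate transcripts. On the scale of all 38 arrays the CHH2 probe had a median of 8.50 in captive eyestalk and 7.15 in wild ovary.

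The inhibiting hormones belong to the same peptide family, but their probes here were designed on lobster, spider crab and white shrimp sequences. Of 20 probes, 10 were called higher, beside 28.6% of all probes, 0 lower and 10 not called. The 2 clear ones are 10.0% of the list, beside 11.3% of all probes. With the vertebrate-derived probes set equal 3 were higher and 5 lower, and the median of 0.21 turned to -0.17. Mandibular organ inhibiting hormone (883-917), which in crabs restrains the gland that makes methyl farnesoate, was a clear difference. Its levels were 9.77, 10.48 and 13.04 in eyestalk and 8.21, 8.68 and 8.97 in cephalothorax, 4.554-fold higher without overlap (adjusted p = 0.0004006), though just 1 of its other 4 probes was called. Vitellogenesis inhibiting hormone (339-373), which in lobster holds back yolk formation, was 2.728-fold higher (adjusted p = 4.203e-05), with 3 of 6 cephalothorax arrays above the level and 2 of 4 others called. Molt-inhibiting hormone-like neuropeptide (369-403) was 1.878-fold and gonad-inhibiting hormone (1670-1704) 1.481-fold higher, each with 5 of 6 cephalothorax arrays above the level, and neither was a clear difference.

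Pigment dispersing hormones, which spread the pigment of chromatophores and of the retina, had 15 probes. Of these 9 were called higher, beside 28.6% of all probes, and 0 lower. The 4 clear ones are 26.7% of the list, beside 11.3% of all probes. By cyclic loess 4 were higher and 1 clear. With the vertebrate-derived probes set equal 1 was higher, and clear, and the median of 0.26 became -0.11. PDH 3 (176-209), designed on a kuruma shrimp sequence, read 7.99, 8.82 and 9.87 in eyestalk, against 7.06, 7.12 and 7.19 in cephalothorax. It was at least 2.572-fold higher (adjusted p = 4.177e-05), with 3 of its 4 other probes called higher. PDH 1 (341-375) was 2.499-fold higher with overlap between the tissues. PDH 2 (9-43) was called at a log2 difference of 0.44 with no array above the non-specific level, so it carries no fold.

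Light signalling probes were higher in eyestalk at 6 of 15, beside 28.6% of all probes, and lower at 0. Of these 2 were clear, or 1 to 5 when 1 array at a time was left out. The 2 clear ones are 13.3% of the list, beside 11.3% of all probes. Arrestin ends the response of activated photoreceptor pigment, and phospholipase C carries the signal in arthropod photoreceptors. Arrestin P.mon31 (561-595) read 7.35, 9.84 and 11.50 in eyestalk and 6.75, 6.87 and 7.21 in cephalothorax, at least 4.719-fold higher (2.77 ± 0.46, adjusted p = 8.524e-05), and both other probes of the target were called higher. The probe is shown because it had the largest light signalling difference:

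arrestin P.mon31 561-595: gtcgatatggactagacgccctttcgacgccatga

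Arrestin P.mon38 (2-36) was 2.257-fold higher with overlap and 5 of 6 cephalothorax arrays above the level, at an adjusted p of 0.03197, and its other probe was not called. Phospholipase C (8-42) was at least 1.668-fold higher without overlap, but 4 of the 12 eyestalk arrays passed the non-specific level, so it was not a clear difference. Arrestin P.mon18 and P.mon10 had no probe called. The 2 estimates for P.mon18 were 1.81 (adjusted p = 0.05986) and 1.80 (adjusted p = 0.06107), with 3 and 4 of the 12 eyestalk arrays above the level. With the vertebrate-derived probes set equal the list had 2 probes higher and 2 lower.

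Among 13 serotonin and monoamine probes 4 were higher, beside 28.6% of all probes, 2 lower and 3 clearly higher. With the vertebrate-derived probes set equal 3 were higher and 4 lower, and the list's median of 0.15 became -0.19. The 5-HT1 receptor (2160-2195), a receptor for serotonin, read 8.74, 9.58 and 10.97 in eyestalk and 7.46, 7.61 and 8.83 in cephalothorax. It was 3.574-fold higher (adjusted p = 5.368e-05, 5 of 6 cephalothorax arrays above the level), with 1 of its other 4 probes called. Phenylalanine/tryptophan hydroxylase (223-257), named for enzymes of which the tryptophan form starts serotonin synthesis, was 2.991-fold higher, while its other 2 probes were not called. A serotonin receptor designed on a Metapenaeus sequence had 1 probe higher and 2 lower, and none of these 3 passed the non-specific level on any array.

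Other genes higher in eyestalk were few. NADH:ubiquinone oxidoreductase flavoprotein 1 subunit (297-331), part of complex I of the respiratory chain, read 10.92, 11.62 and 12.72 in eyestalk and 9.10, 9.66 and 10.27 in cephalothorax. It was 4.041-fold higher without overlap (adjusted p = 7.813e-06), and 1 of its 2 other probes was called. Farnesoic acid O-methyltransferase (1418-1452), which makes methyl farnesoate, was at least 1.805-fold higher, but 0 of its 4 other probes were called. Neither nuclear receptor gave a clear difference. Retinoid X receptor had 1 of 5 probes called, at 0.38 and above the level on no array, and nuclear hormone receptor E75, an ecdysone response gene in insects, had 0 of 5. Over the 15 probes of these receptors and of the methyl farnesoate enzyme, 2 were higher and 0 lower, with a median of 0.10 that became -0.24 with the vertebrate-derived probes set equal. Cathepsin D (417-451), a lysosomal protease, was called higher with 2 of 12 eyestalk and 1 of 6 cephalothorax arrays above the level. Cathepsin C (1114-1148) was called at 0.40 with no array above the level, and turned to -0.04 with the vertebrate-derived probes set equal.

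Among the sources of targets, hepatopancreas sequences had the largest share of probes clearly lower in eyestalk, at 37.6% beside 13.7% of all probes. Of the 351 probes designed on expressed sequence tags (ESTs) of that gland, 67 were higher in eyestalk, 164 lower and 120 not called, and 132 were clearly lower against 30 clearly higher. HPA-N-S01-0642-LF (24-62), an EST without a gene name, had the largest negative difference. It read 7.24, 7.52 and 7.97 in eyestalk, where no array passed the non-specific level, and 13.86, 15.08 and 15.59 in cephalothorax, at least 100.0-fold lower (-7.38 ± 0.20, adjusted p = 3.505e-16). HPA-N-S01-0731-LF (6-40) read 7.27, 7.78 and 8.32 in eyestalk, where 1 of 12 arrays passed the level, and 14.65, 15.04 and 15.59 in cephalothorax (log2 difference -7.35 ± 0.15). HPA-N-S01-0571-LF (211-245), with 4 of 12 eyestalk arrays above the level, was 122.1-fold lower. The bounds for the others were at least 54.11-fold for HPA-N-S01-0577-LF (184-219), 38.45-fold for HPA-N-S01-0698-LF (24-62), 38.19-fold for HPA-N-S01-0706-LF (12-46), 34.82-fold for HPA-N-S01-0001-LF (576-611) and 17.28-fold for the SMART clone C-C11 (179-213).

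In all 8 targets every eyestalk array lay below every cephalothorax array, and every other probe of the target was called lower as well. Some of the 8 targets hold related probe sequences, so the 8 may not be separate genes, which was not tested. A second probe of each of 3 ESTs holds the same 33 bases, given in capitals, and these probes were at least 25.35-fold, 27.39-fold and 28.27-fold lower in the order shown:

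HPA-N-S01-0642-LF 128-164: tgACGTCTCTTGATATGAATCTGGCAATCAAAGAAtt
HPA-N-S01-0731-LF 216-253: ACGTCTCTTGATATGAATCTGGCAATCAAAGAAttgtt
HPA-N-S01-0698-LF 112-146: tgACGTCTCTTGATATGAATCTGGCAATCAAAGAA
C-C11 179-213: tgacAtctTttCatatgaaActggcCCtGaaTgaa

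The C-C11 probe, of the same length as the third sequence, differs from it at 8 of 35 bases, which are its capitals. A probe of HPA-N-S01-0571-LF (573-607) shares a run of 17 bases with the first. The strand could be checked at one site. A probe of HPA-N-S01-0014-LF (439-473) that holds 31 bases of the HPA-N-S01-0571-LF probe at 211-245 on the opposite strand differed by 0.18 (adjusted p = 0.1497), while that probe itself differed by -6.93. On the scale of all 38 arrays, the 8 probes had wild ovary medians between 6.25 and 7.59 and captive eyestalk medians between 6.12 and 7.92, beside wild cephalothorax medians between 12.51 and 15.08.

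Among 22 protease probes 3 were higher, 2 lower and 17 not called, beside 28.6% higher and 20.8% lower of all probes. Just 1 was a clear difference. With the vertebrate-derived probes set equal 0 were higher and 13 lower, beside 188 and 897 of all 2240 probes. Cathepsin L of P. monodon (566-599), a protease of lysosomes and of the crustacean digestive gland, read 6.33, 6.72 and 7.34 in eyestalk and 8.50, 10.31 and 12.15 in cephalothorax. It was at least 4.317-fold lower without overlap (-3.63 ± 0.36, adjusted p = 1.958e-07). Its other 2 probes were not called, at 0.05 and -0.11, and none of their arrays passed the non-specific level. The cathepsin L precursor of Metapenaeus ensis (700-734) was lower by -0.88 in log2, with 0 of its 4 other probes called. Hemocyte transglutaminase, the clotting enzyme of crustacean blood, was lower in eyestalk at 2 of 3 probes, most at 337-371 (2.788-fold, adjusted p = 0.01704, 4 of 12 eyestalk arrays above the level).

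**Figure D3:**
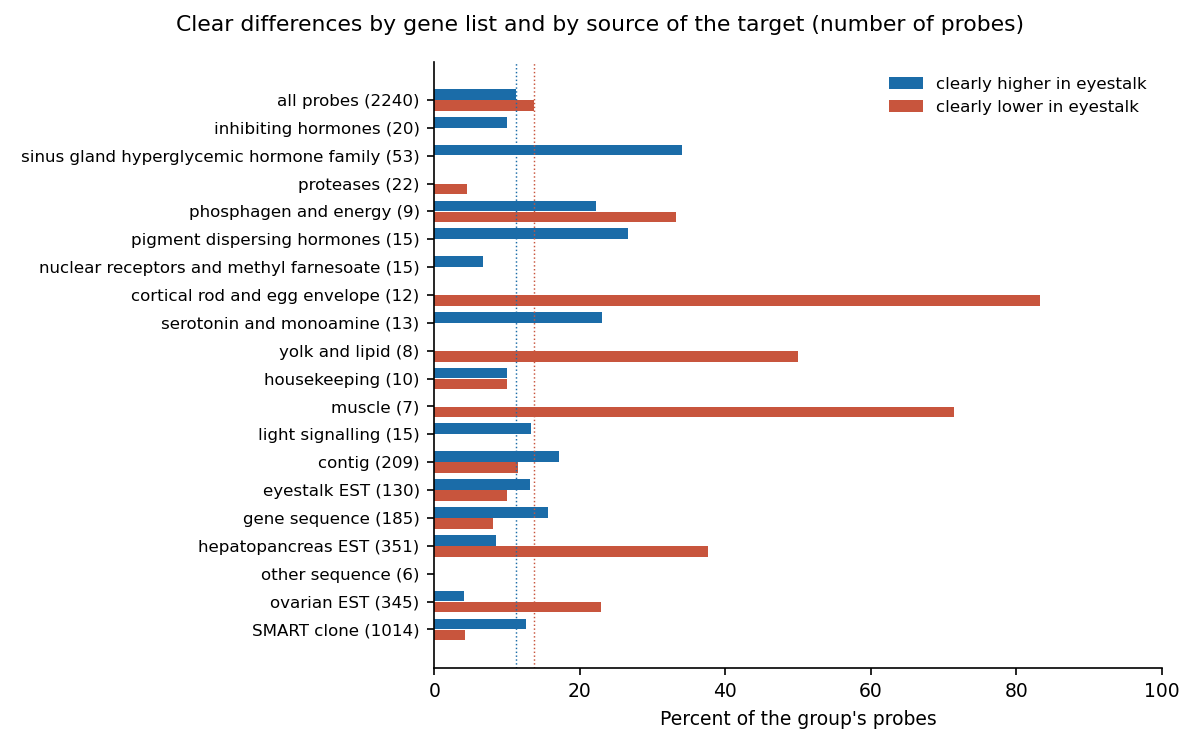
Percent of the probes in each gene list (of 7 or more probes) and each source of targets that were clearly higher (blue) or clearly lower (red) in eyestalk, with dotted lines at the shares of all 2240 probes, 11.3% and 13.7%. Sinus gland hormones stand to the right among the higher shares, and cortical rod, muscle, yolk and hepatopancreas EST probes among the lower ones.

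The other sources of targets, between which no difference was tested, were as follows. Ovarian ESTs had 60 probes higher, 135 lower and 150 not called of 345. Of these 79 were clearly lower and 14 clearly higher, shares of 22.9% and 4.06%. Eyestalk ESTs had 36 higher, 19 lower and 75 not called of 130, with 17 clearly higher and 13 clearly lower, shares of 13.1% and 10.0% beside 11.3% and 13.7% of all probes. The SMART clones had 327 higher and 91 lower of 1014, beside 28.6% and 20.8% of all probes. Of the 1014, 128 were clearly higher and 43 clearly lower. These shares of 12.6% and 4.24% stand beside the same 11.3% and 13.7%, so only the lower share was far from that of all probes. Among 850 targets with 2 or more probes, 96 had every probe called higher, 133 every probe lower and 17 had probes called in opposite directions. By clear differences these counts were 33, 80 and 0.

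Most muscle probes were lower in eyestalk, and the eyestalk arrays disagreed among themselves. Of 7 muscle probes 5 were called lower, all clearly, and 2 were not called. The 5 clear ones are 71.4% of the list, beside 13.7% of all probes. Myosin alkali light chain (61-95), a part of the contractile filament, read 6.93, 8.78 and 12.20 in eyestalk and 10.11, 12.98 and 13.42 in cephalothorax. With 7 of 12 eyestalk arrays above the level, it was 12.52-fold lower with overlap (-3.65 ± 0.81, adjusted p = 0.001305), and its other probe was lower too. Muscle LIM protein 84B (233-267), which in flies sits in the sarcomere, was 3.805-fold lower (adjusted p = 0.01652, 9 of 12 eyestalk arrays above the level), with both other probes lower. The 2 probes of myosin fast heavy chain were not called, at 0.59 and -0.04.

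Of 9 phosphagen and energy probes 2 were higher, both of the NADH:ubiquinone oxidoreductase subunit, 3 lower and 4 not called. Arginine kinase stores energy as phosphoarginine in invertebrate muscle and nerve, and its 2 targets differed. P.mon44 (9-43) read 7.11, 8.55 and 13.30 in eyestalk and 13.23, 14.03 and 14.65 in cephalothorax, 24.44-fold lower with 5 of 12 eyestalk arrays above the level (-4.61 ± 0.89, adjusted p = 0.0004216), and 1 of its other 2 probes was called lower. P.mon41 (5-39) read 11.91, 13.19 and 14.41 in eyestalk and 13.82, 14.30 and 14.74 in cephalothorax, 2.372-fold lower (adjusted p = 0.007602), and its other 2 probes were not called. P.mon41 was therefore abundant on every array of both tissues, while P.mon44 ranged over more than 6 log2 units within eyestalk.

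The same 3 eyestalk arrays were high for P.mon44, muscle and arrestin. The means of the 3 P.mon44 probes were 12.73 and 11.51 on the 2 h arrays and 12.76 on the second preablation array, and those of the 7 muscle probes 11.34, 11.04 and 11.63. Arrestin, over 9 probes, averaged 10.37, 9.50 and 10.55 on these arrays. Over the 6 cephalothorax arrays the means were 12.42 to 13.19 for P.mon44, 10.95 to 12.03 for muscle and 6.78 to 6.99 for arrestin. On the other 9 eyestalk arrays P.mon44 lay between 6.95 and 9.97, muscle between 8.34 and 10.40 and arrestin between 7.25 and 8.62. These 9 were not alike. Arrays of the third eyestalk slide made up the upper part, from 8.14 for P.mon44, 9.37 for muscle and 7.77 for arrestin. The rest reached at most 7.75, 9.23 and 7.55. The sinus gland mean showed no such split, at 7.89, 8.15 and 7.53 on the 3 arrays and 7.52 to 8.54 on the other 9. The 3 arrays are all previtellogenic. Their part in the results was measured by leaving them out, a step chosen after seeing the data: 5 muscle probes stayed lower, the median muscle difference was -2.44 in place of -1.78, and 1012 probes were called and 556 were clear. The light signalling list then had 8 probes higher in place of 6, but 1 clear in place of 2, and a median of 0.71 in place of 1.17. In the previtellogenic arrays alone 1 muscle probe was called lower, and in the vitellogenic arrays alone 5.

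**Figure D4:**
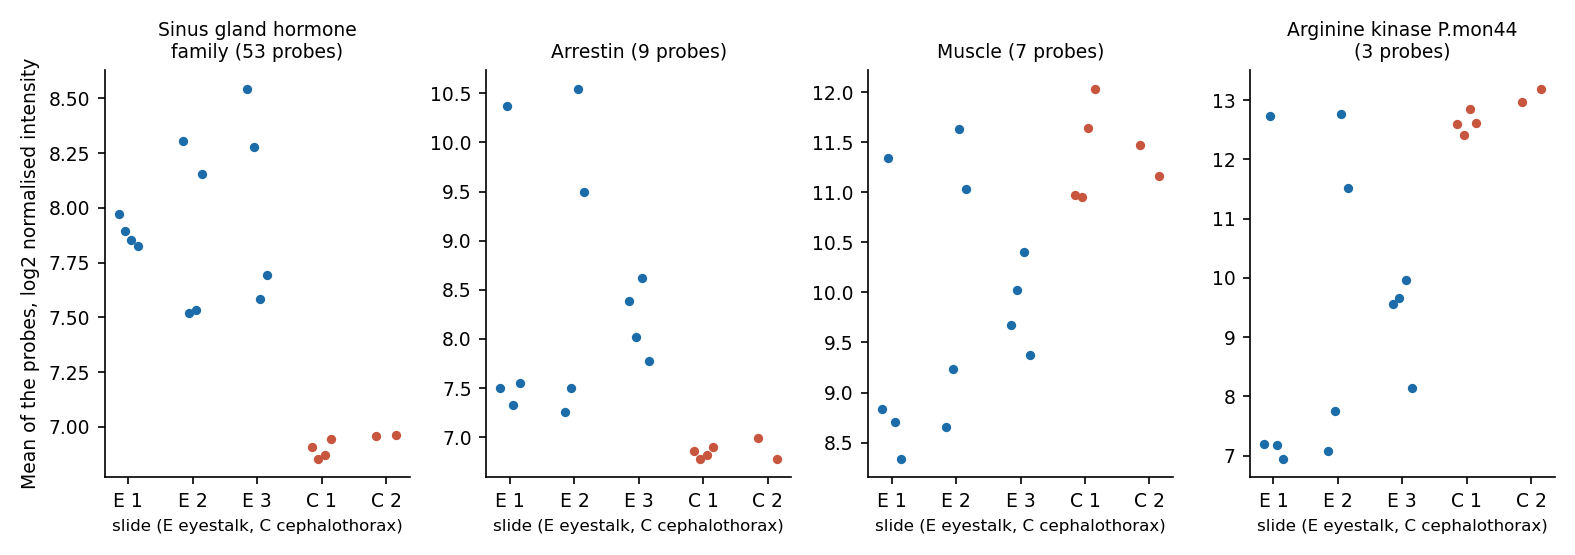
Mean log2 normalised intensity of 4 probe sets on each array, by slide, with the 3 eyestalk slides (blue) left of the 2 cephalothorax slides (red). Arrestin, muscle and arginine kinase P.mon44 are high on the same 3 eyestalk arrays, 1 on the first slide and 2 on the second, while sinus gland hormones are not. On the third eyestalk slide arrestin, muscle and P.mon44 lie between those 3 arrays and the rest.

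Cortical rod and egg envelope genes belong to the ovary, where oocytes store these proteins in rods at the cell edge. Of 12 probes, 11 were lower in eyestalk, 10 clearly, and 1 was not called, with a median difference of -1.94. The 10 clear ones are 83.3% of the list, beside 13.7% of all probes. Thrombospondin (1018-1051), a rod protein, read 7.47, 7.72 and 8.16 in eyestalk and 8.19, 10.33 and 12.95 in cephalothorax, at least 4.156-fold lower (adjusted p = 0.0005801), and its other 4 probes were lower too. Ovarian peritrophin 1 (484-517) was at least 4.678-fold lower and ovarian peritrophin 2 (484-518) at least 4.952-fold, but these probes share 34 bases and are 1 reading. On the scale of all 38 arrays the wild ovary medians of these 3 probes were 13.90, 13.48 and 13.21. These 3 probes thus gave signal on cephalothorax arrays and had high medians in ovary. The cephalothorax levels above are not on the scale of all 38 arrays, so they are not ranked against the ovary medians. Ovarian tissue in the cephalothorax pieces was not tested as a source of these signals.

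The cephalothorax level of these genes depended on the phase. The mean of the 12 cortical rod probes was 10.04, 10.13 and 11.10 in the preablation, 2 h and 24 h cephalothorax, and 8.82, 7.99 and 8.15 in the vitellogenic, round rod and elongated rod cephalothorax. All 12 probes, from 3 targets, were higher on every previtellogenic than on any vitellogenic cephalothorax array. The share of all 2240 probes that separated in this way was not counted. In eyestalk the mean lay between 7.01 and 8.0 at all stages. The list was lower in eyestalk at 12 of 12 probes in previtellogenic arrays alone and at 6 of 12 in vitellogenic arrays alone, and the interaction described below was called at 9 of the 12 probes, all positive.

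Vitellogenin, the yolk protein precursor, ran the opposite way. The mean of its 5 probes was 7.17, 7.35 and 7.09 in the preablation, 2 h and 24 h cephalothorax, and 12.95, 13.40 and 12.98 in the vitellogenic, round rod and elongated rod cephalothorax. Eyestalk means stayed between 7.02 and 7.97. Over all 18 arrays 4 of 5 probes were lower in eyestalk, beside 20.8% of all probes. Of the 8 yolk and lipid probes 5 were lower in vitellogenic arrays alone and 1 in previtellogenic arrays alone. The probe at 7005-7039 is shown since it had the largest dependence on phase:

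vitellogenin 7005-7039: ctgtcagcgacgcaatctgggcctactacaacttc

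It read 6.41 to 6.94 over vitellogenic eyestalk arrays and 14.56, 14.97 and 14.16 in the 3 vitellogenic cephalothorax stages, but 6.57 to 6.89 in previtellogenic eyestalk and 7.01, 7.32 and 7.11 in previtellogenic cephalothorax. The tissue difference was -4.15 ± 1.08 over both phases (adjusted p = 0.004278). In the wild ovary arrays its median was 9.88 on the scale of all 38 arrays. The vitellogenin receptor probes, designed on a fly sequence, had 1 of 3 called, at 0.34 and above the level on no array.

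**Figure D5:**
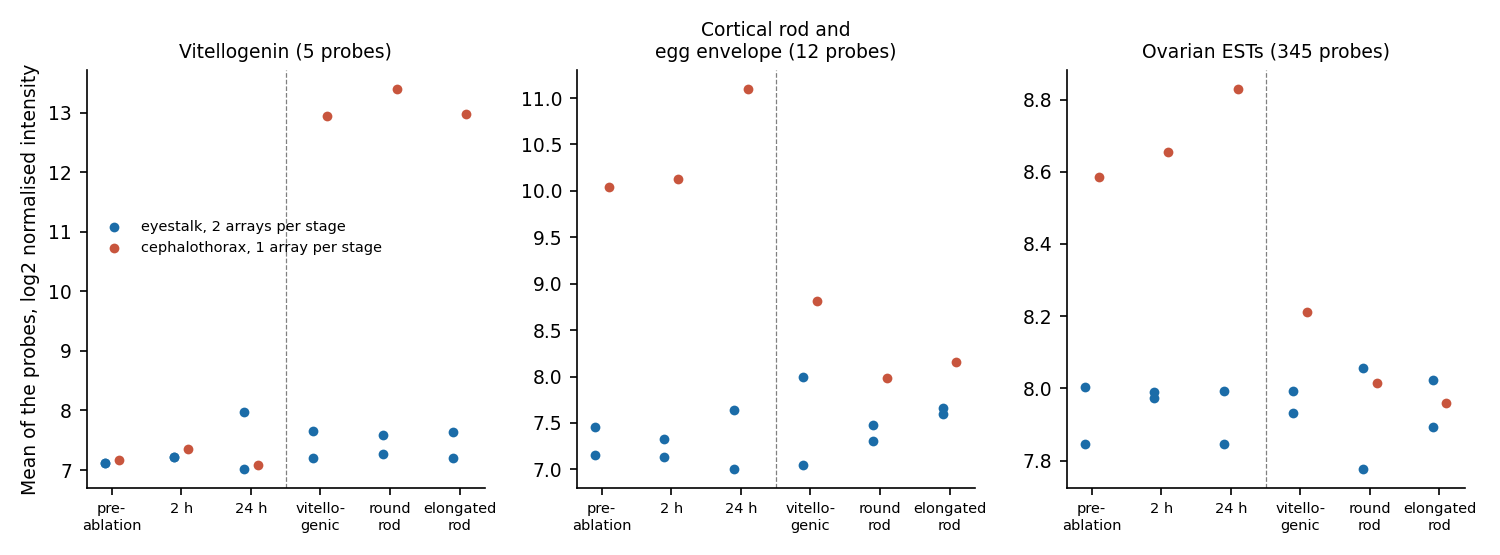
Mean log2 normalised intensity of the vitellogenin, cortical rod and ovarian EST probes at each stage, with 2 eyestalk arrays (blue) and 1 cephalothorax array (red) per stage and a dashed line between the phases. Vitellogenin is high in the 3 vitellogenic cephalothorax arrays, between 12.95 and 13.40, while the other sets are high in the 3 previtellogenic ones.

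Whether the tissue difference depended on phase was tested as an interaction, the vitellogenic minus previtellogenic change in eyestalk minus that in cephalothorax. By limma 219 of 2240 probes (9.78%) were called at an adjusted p under 0.05, 165 positive and 54 negative. In 218 of the 219 the mean moved more between phases in cephalothorax than in eyestalk. The 5 smallest adjusted p-values belonged to 3 vitellogenin probes, 1 hepatopancreas EST and 1 ovarian EST. Vitellogenin had interaction estimates of -7.44 ± 0.23 (7005-7039, adjusted p = 3.581e-13), -6.30 ± 0.19 (6949-6983, adjusted p = 3.581e-13) and -6.40 ± 0.43 (7245-7279, adjusted p = 5.426e-08). HPA-N-S01-0018-LF (533-567) had -2.60 ± 0.23 (adjusted p = 2.552e-06), with 10.07, 10.07 and 9.87 in the 3 vitellogenic cephalothorax stages and 7.53, 6.97 and 8.05 in the previtellogenic ones. OV-N-S01-1123-W (26-60) had 1.74 ± 0.13 (adjusted p = 2.363e-07), with 7.01, 7.08 and 6.91 in vitellogenic and 8.79, 8.67 and 8.46 in previtellogenic cephalothorax.

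An interaction was called at 110 of the 345 ovarian EST probes, beside 9.78% of all probes. All 110 were positive, that is lower in vitellogenic cephalothorax. Their median change was -2.05 there and 0.07 in eyestalk. Of the 351 hepatopancreas EST probes 37 were called, a share near that of all probes. Of these 31 were negative and 6 positive, with a median change of 1.28 in cephalothorax and -0.03 in eyestalk. Over all 345 ovarian EST probes, 133 were higher on every previtellogenic than on any vitellogenic cephalothorax array, and 41 the other way. No such count was made over all 2240 probes, so these 2 counts have no background share beside them. The mean of the 345 ovarian EST probes was 8.21, 8.02 and 7.96 in the 3 vitellogenic cephalothorax stages and 8.59, 8.66 and 8.83 in the previtellogenic ones. Eyestalk means of these probes lay between 7.78 and 8.06. Both cephalothorax slides held arrays of both phases.

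The remaining lists showed little. Of 10 housekeeping probes 1 was higher, 1 lower and 8 were not called, and their median of 0.29 became -0.18 with one median, -0.52 by cyclic loess and -0.51 with the vertebrate-derived probes set equal. The 40S ribosomal small subunit protein (297-331) was 2.796-fold higher (adjusted p = 0.03552), and histone H1 (52-85), a linker of chromatin, 2.782-fold lower (adjusted p = 0.01168, 3 of 12 eyestalk arrays above the level), both with overlap and with no other probe of the target called. The 2 ubiquitin probes were at 0.09 and 0.65 and the 3 ribosomal protein L18 probes between -0.44 and 0.48, none of them called. Protein disulfide isomerase, which folds secreted proteins, had 0 of 3 probes called.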

How the data were processed

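Single-colour Cy5 oligonucleotide arrays of pooled total RNA were analysed from the deposited scanner files, in which the foreground mean is a linear spot intensity, per the file headers. No background column was used. The deposited value table equalled these intensities at 40302 of 40302 values (tolerance 0.01), so the authors had not normalised it. Here intensities of the 18 arrays were corrected by normexp (offset 50), taken to log2, quantile normalised and tested with limma 3.58.1 in R 4.3.3 (lmFit, eBayes), with Benjamini-Hochberg adjustment over 2240 probes. The fit was first tested on simulated data. Gene names come from the array's own annotation, which may have aged. Up to 6 targets per gene list were named, each by its called probe with the largest difference, plus the 8 unnamed targets with the largest clear difference in each direction and the 5 probes with the smallest interaction p. The groups compared, the gene lists and the rules were chosen with earlier results of these data known. Alternatives were other scalings, filters, blocks, subsets and single arrays left out. The number of arrays limits the precision.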

Additional observations from a re-analysis of the deposited data

Results flagged for a closer look

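Among the named probes 8 had an interaction call by limma, of which 5 were named for the smallest interaction p and the 2 peritrophin probes share 34 bases (vitellogenic minus previtellogenic change in eyestalk, minus that in cephalothorax). Vitellogenin had interaction estimates of -7.44 at 7005-7039, -6.30 at 6949-6983 and -6.40 at 7245-7279, and HPA-N-S01-0018-LF (533-567) had -2.60. Ovarian peritrophin 2 (484-518) had 3.69 ± 0.49 (SE, adjusted p = 8.593e-05), thrombospondin (1018-1051) 3.29 ± 0.44 (adjusted p = 8.621e-05), ovarian peritrophin 1 (484-517) 3.12 ± 0.62 (adjusted p = 0.002377) and OV-N-S01-1123-W (26-60) 1.74.

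A single cephalothorax array stood far from the other 5 at 3 of the 58 probes checked, by Dixon's ratio of the gap to the whole range, read against its 95% critical value for 6 arrays. Chance alone flags about 1 group in 20. Myosin alkali light chain (61-95) had a ratio of 0.809, with 10.11 on the round rod array and 12.79 on the next lowest. The serotonin receptor (3837-3871) had 0.748, with 6.86 on the 2 h array and 6.39 on the next highest. PmSGP-I (521-555) had 0.704, with 7.41 on the elongated rod array and 7.72 on the next lowest.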

How the results depend on the processing

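Of 58 named probes 34 kept direction and call under all 36 settings run. The count of called probes moved from 1107 to 728 with the 4 eyestalk arrays of the slide named like the cephalothorax scans, to 608 with vitellogenic arrays alone and to 509 with the second cephalothorax slide alone, where the clear differences were 369. Fewer arrays entered each of these fits. Leaving out 1 array at a time gave 953 to 1156 called, 512 to 600 clear and 194 to 242 interaction calls over 18 fits. The direction turned at 3 probes, none of them then called: vitellogenin 6949-6983 was at 0.0421 in previtellogenic arrays alone, and with the vertebrate-derived probes set equal cathepsin C 1114-1148 was at -0.0351 and vitellogenin receptor 329-363 at -0.0664. The 40S ribosomal protein lost its call in 20 settings and arrestin P.mon38 in 13. Without the 3 eyestalk arrays high in muscle and arrestin, a choice made after seeing the data, interaction calls were 165. With slide as a random block the correlation of arrays on 1 slide was 0.0809. Signal over background limits what the dim probes show. No paired analysis was possible because the cephalothorax labels carry no replicate number, so no label ties a cephalothorax array to a given eyestalk array. Matching was possible by stage alone. With stage, which both tissues share, as a fixed block 1042 probes were called and 554 were clear.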

Other observations

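The clones called SMART, whose tissue of origin is not given in the sources used here, are given here by plate, with no test between plates, beside 11.3% clearly higher and 13.7% clearly lower of all probes. Plate E had 20 of 89 probes clearly higher in eyestalk and 1 clearly lower (22.5% and 1.12%), and plateB 15 of 83 higher and 1 lower. Plate C had 9 of 80 clearly higher and 11 lower (11.2% and 13.8%), and Plate-C 10 of 62 higher and 8 lower. Plates A, B and Plate-B had 0 probes clearly lower. The mean of the 351 hepatopancreas EST probes was 9.16, 9.02 and 9.07 in the vitellogenic, round rod and elongated rod cephalothorax and 8.85, 8.70 and 8.61 in the preablation, 2 h and 24 h cephalothorax, while eyestalk means stayed between 7.80 and 7.92. These are descriptions with 1 array a stage. Exoskeletal protein (P.mon49, 269-303) was at least 2.002-fold higher in eyestalk (adjusted p = 0.0005267), at 7.64, 8.25 and 9.97 in eyestalk and 6.74, 6.84 and 7.09 in cephalothorax. It was chosen after its values were seen, and its other 2 probes were not called.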
